A study of Sus scrofa with 75 samples.

Results

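Heart and kidney were compared directly, within the same pigs, for energy metabolism, ion transport and transcript usage. The comparison rests on 16 of the 75 samples of a series on the transcriptome of local pigs from China. They are the 8 heart and 8 kidney Illumina RNA libraries of 8 animals, chosen by the organ at the end of the library title and paired by the animal code in front of it. All pigs were adult males aged 12 months. Of them, 4 carried the code BS and 4 the code DSE, which the labels do not explain, and no treatment, genotype or breed is named for either code. Liver, lung and spleen of the same 8 animals, which bring the short-read libraries to 40, serve only as a scale. PacBio full-length reads were available from 1 library for each pig code and organ, with no animal named, so 4 of these 10 libraries hold heart or kidney. The labels describe whole organ samples without saying which region of heart or kidney was taken.

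Heart muscle makes most of its ATP by oxidative phosphorylation, fed largely by fatty acids, and spends it on contraction and on pumping calcium back into the sarcoplasmic reticulum after each beat. Kidney tubules are just as dependent on mitochondria, but spend the ATP mainly on the sodium pump, whose gradient drives the uptake of sodium, glucose, amino acids and organic ions from the filtrate, and the proximal tubule also makes glucose. Many enzymes, carriers and channels exist in a muscle form and a form of other tissues, made from separate genes or from alternative exons of 1 gene.

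Gene levels are TPM, the usual level of RNA-seq, relative to the rest of the library and scaled for transcript length, so the depth behind each value is unknown. Differences are heart minus kidney on the log2(TPM + 1) scale, which understates the change of low genes, with the standard error (SE) from a limma model that keeps the animal as a block. A gene was called higher in 1 organ at an adjusted p under 0.05 and at least 2-fold. On this rule 1346 of 14173 tested genes (9.5%) were higher in heart and 5583 (39.4%) higher in kidney, and 7855 genes (55.4%) had no overlap between the 8 heart and 8 kidney libraries. The deposited values of each library sum to the same total, and the median difference over all tested genes was -0.77, against which each member's difference is to be read. With libraries rescaled to a common typical gene (median-ratio scaling), the median was -0.08, and 2470 genes (17.4%) were higher in heart and 2761 (19.5%) in kidney. The share of calls that were higher in heart was thus 19.4% as deposited, 47.2% with median-ratio scaling and 28.6% with the mitochondrial genome left out, where the median was -0.54. Unless stated otherwise, each gene given below as higher in an organ had that direction in all 8 animals, showed no overlap between the organs and was also called the same way with median-ratio scaling.

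Cardiomyocyte and tubule markers followed the organ labels. The 13 matched cardiomyocyte markers summed to 5.38% to 7.77% of TPM in heart and 0.00365% to 0.0124% in kidney, and all 8 proximal tubule, 7 loop and distal tubule and 7 collecting duct markers were called higher in kidney. Summed proximal tubule markers were 9806 to 16540 TPM in kidney and 0.592 to 4.93 in heart. Of 5 podocyte markers tested, 4 were higher in kidney and 1 in heart. Other cell types also moved with organ. Fibroblast markers (5 of 7 higher in heart) summed to 726.6 to 1332 TPM in heart and 124.9 to 280.6 in kidney, endothelial markers (2 of 8) to 272.9 to 507.3 and 147.2 to 261.2, and smooth muscle markers (3 of 6) to 332.2 to 977.8 and 166.9 to 329.5. Their part in the results was not tested, and in whole tissue fewer cells of a type and less RNA per cell cannot be told apart. Each library correlated at 0.953 or more (log2 values, across genes) with the mean of the other libraries of its organ, lowest in the kidney of BS1.

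Fewer genes were expressed in heart. At 1 TPM or more, heart libraries held 11631 to 12185 genes (median 11810) and kidney libraries 13069 to 13550 (median 13270). With TPM rescaled without the mitochondrial genome, the ranges were 12453 to 12905 and 13514 to 13961, closer together but still without overlap. The values that follow are as deposited. Heart was lower in 8 of 8 animals, with a mean difference of -1438 genes and an exact two-sided paired permutation p of 0.00781, the smallest that 8 pairs allow.

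Mitochondrial transcripts took a larger part of the RNA in heart. Transcripts of the mitochondrial genome made up 33.9% to 46.0% of heart TPM (median 37.2%) and 18.5% to 27.1% of kidney TPM (median 22.9%), with no overlap. The other organs lay far below, where the medians of liver, lung and spleen were 10.3%, 7.46% and 7.04%. Within heart, the 4 BS libraries lay between 33.9% and 36.1% and the 4 DSE libraries between 38.3% and 46.0%, without overlap, whereas in kidney the BS range of 18.5% to 27.1% enclosed the DSE range of 20.4% to 23.8%.

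**Figure D1:**
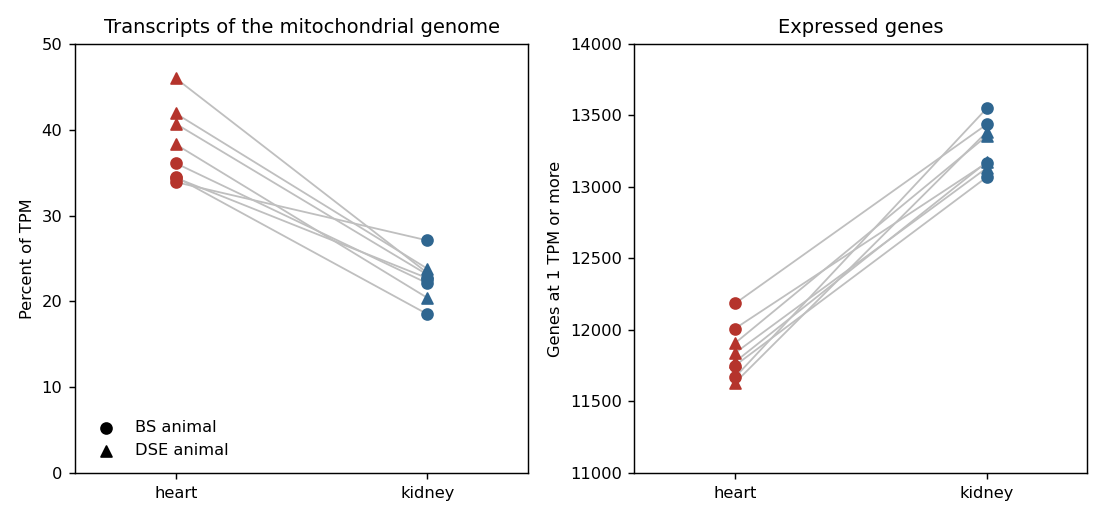
Percent of TPM from the mitochondrial genome (left) and number of genes at 1 TPM or more (right, axis from 11000) in each library, with grey lines joining heart and kidney of 1 animal. All 8 lines fall from heart to kidney on the left and rise on the right.

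The genes of the mitochondrial genome had higher means in heart, in all 16 that were tested, but 6 of them passed the 2-fold limit as deposited and all 16 with median-ratio scaling. COX1, a catalytic subunit of cytochrome c oxidase, measured 65600 to 84950 TPM in heart (median 71390) and 33010 to 57580 in kidney (median 43800), a difference of 0.76 ± 0.10 (SE; limma adjusted p = 1.85e-05) that stayed under the 2-fold limit. The complex I subunit ND2 passed it, with 13070 to 16220 TPM in heart (median 14240), 5974 to 8592 in kidney (median 6942) and a difference of 1.04 ± 0.08 (limma adjusted p = 3.36e-07). The largest difference belonged to ENSSSCG00000018063, whose position matches a ribosomal RNA in the RefSeq table, with 968.4 to 1791 TPM in heart (median 1156), 187.8 to 885.2 in kidney (median 252.4) and 2.15 ± 0.19 (limma adjusted p = 7.22e-07). Ribosomal RNA had been removed from the samples before sequencing. The other ribosomal RNA, ENSSSCG00000018061 (1.06), and ND5, ND6 (each 1.05) and ND4L (1) were also called, with overlapping ranges and differences at the 2-fold limit. They lost the call when single animals were left out, ENSSSCG00000018061 without BS3 (0.98), ND5 without BS2 (0.97), ND6 without BS2 or BS3 (0.98) and ND4L without BS2, BS3, BS4 or DSE3 (0.82 at the lowest). ND5 and ND6 lie on opposite strands and share bases, and whether the counting used strand is not stated. The genes of the mitochondrial genome were picked for naming after their values were seen.

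Nuclear genes for the respiratory chain and ATP synthase summed to a larger share in heart, although most single subunits did not pass the 2-fold limit as deposited. As a share of nuclear TPM, which leaves the mitochondrial genome out, the 75 matched subunit genes summed to 6.71% to 7.97% in heart (median 7.30%), 2.92% to 4.07% in kidney (median 3.29%) while the medians of liver, lung and spleen were 1.12%, 1.04% and 1.08%. Complex I, which takes electrons from NADH, had 10 of 32 tested subunits higher in heart and 0 in kidney, with a median of 0.82. Complex III, which passes them to cytochrome c, had 4 of 8 and 0, with a median of 0.90. ATP synthase had 4 of 13 and 0, with a median of 0.61. Complex II, shared with the citric acid cycle, differed from these, with 0 of 4 higher in heart, 1 higher in kidney and a median of -0.23. With median-ratio scaling the counts in heart rose to 28 of 32, 8 of 8 and 12 of 13, and complex II had no call in either direction and a median of 0.60.

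Called subunits of complexes I and III and of ATP synthase differed by 1.01 to 2.19, and the largest difference of each is given first. NDUFB1, an accessory subunit of complex I, measured 734.4 to 1534 TPM in heart (median 1274) and 162.7 to 377.7 in kidney (median 269.2), 2.19 ± 0.07 apart (limma adjusted p = 1.5e-10). UQCRB, a subunit of complex III, measured 1073 to 1430 (median 1199) and 235.9 to 398.2 (median 330.6), 1.92 ± 0.08 apart (limma adjusted p = 9.45e-10). ATP5MC1, 1 of the genes for the rotating c ring of ATP synthase, measured 1559 to 2377 (median 2144) and 450.7 to 983.0 (median 592.5), 1.68 ± 0.11 apart (limma adjusted p = 5.53e-08). Heart was higher in every pig for all of them. NDUFB5 (1.64), NDUFB9 (1.14), NDUFS4 (1.13), UQCR11 (1.16), UQCR10 (1.15), UQCRFS1 (1.01), ATP5ME (1.65), ATP5IF1, the inhibitor of ATP hydrolysis by the synthase (1.03), and ATP5PO (1.01) were called with smaller log2 differences. UQCR10 was the most abundant called subunit of complex III, at 1222 to 1494 TPM in heart and 493.3 to 851.2 in kidney. UQCRFS1 and ATP5PO lay at the limit and lost the call when single animals were left out, UQCRFS1 without BS1, BS2 or BS4 (0.98 at the lowest) and ATP5PO without BS1, BS3, BS4, DSE3 or DSE4 (0.97 at the lowest). SDHC, a membrane anchor of complex II, was the call in kidney, with 47.8 to 114.6 TPM in heart and 73.8 to 263.4 in kidney, overlapping ranges, and a difference of -1.1 that became -0.27 and uncalled with median-ratio scaling.

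Cytochrome c oxidase, the last enzyme of the chain, combined a general excess in heart with a swap of subunit isoforms. Of 18 genes tested, 11 were higher in heart and 3 in kidney, with a median of 1.09. CYCS, which encodes cytochrome c, was among the former, with 377.7 to 626.1 TPM in heart (median 486.0), 77.9 to 135.6 in kidney (median 120.4) and a difference of 2.11 ± 0.09 (limma adjusted p = 1.18e-09). So was NDUFA4, a subunit first assigned to complex I, with 2202 to 2976 and 633.0 to 940.6 TPM (1.66 ± 0.06). COX4I1 (1.02), COX5A (1.13) and COX4I2 (2.73), the last at only 28.5 to 47.4 TPM in heart, were called as well, COX4I1 not without BS3 or BS4 (0.99 at the lowest).

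The isoform pairs ran in opposite directions. COX6A2, the muscle form of subunit VIa, measured 363.6 to 867.7 TPM in heart (median 494.9) and 12.2 to 20.6 in kidney (median 13.7), 5.07 ± 0.09 higher in heart (limma adjusted p = 1.28e-12). Its partner COX6A1 measured 27.7 to 50.9 in heart (median 36.4) and 186.6 to 314.6 in kidney (median 240.4), a difference of -2.71 ± 0.07 (limma adjusted p = 2.25e-11). COX8H, the heart and muscle form of subunit VIII, measured 2186 to 3584 TPM in heart and was listed at 0 in all 8 kidney libraries, so no fold is given. COX8A, its counterpart, measured 174.5 to 487.1 in heart and 838.6 to 2035 in kidney (-2.08 ± 0.08, limma adjusted p = 7.13e-10). For subunit VIIa the swap was partial. The muscle form COX7A1 was higher in heart, at 158.5 to 252.2 against 37.8 to 64.0 TPM (1.97 ± 0.06), but COX7A2 remained the more abundant member in both organs, with 503.8 to 643.4 in heart and 861.8 to 1328 in kidney, and its difference of -0.93 was not called (-0.09 with median-ratio scaling). COX7A2L, an assembly factor of respiratory supercomplexes, was also called in kidney (-1.34), not called with median-ratio scaling (-0.50).

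**Figure D2:**
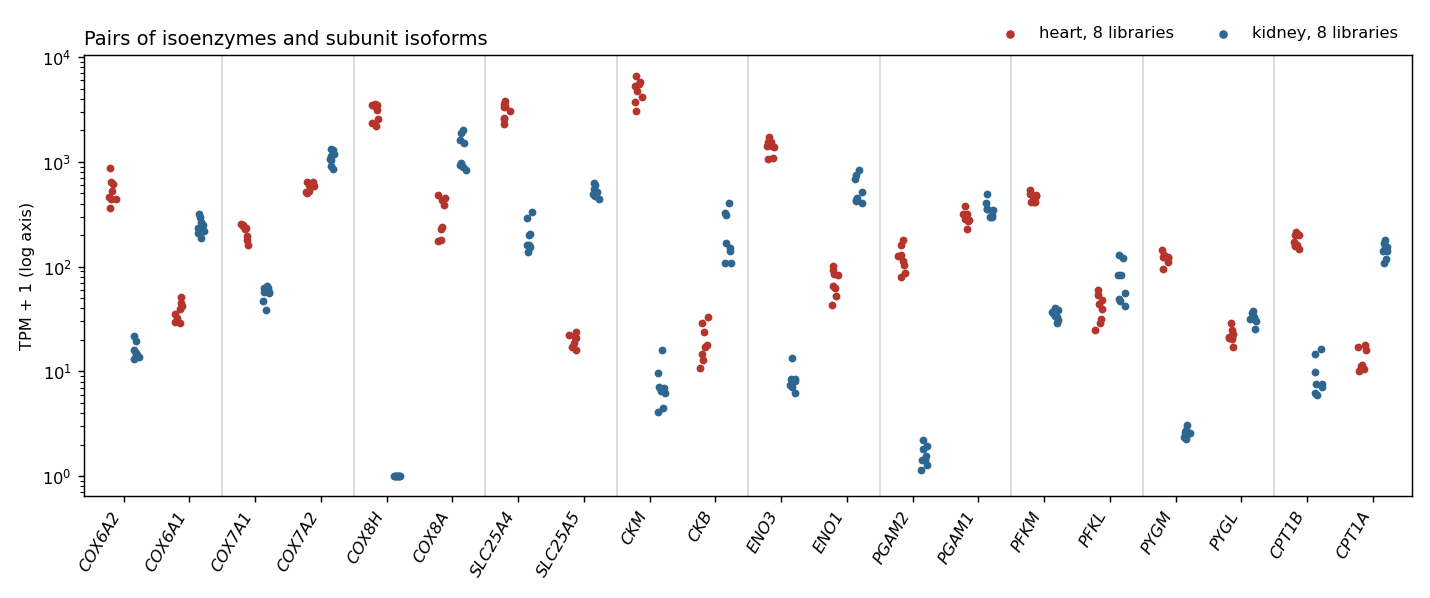
Levels of paired isoenzymes, subunit isoforms and carriers (TPM + 1, log axis) in 8 heart (red) and 8 kidney (blue) libraries, 1 point per library, with the muscle member of each pair first. COX6A2, COX8H, SLC25A4, CKM, ENO3 and PGAM2 lie far higher in heart and COX6A1, COX8A, SLC25A5, CKB and ENO1 in kidney, while PGAM1, PFKL and PYGL overlap.

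Genes of the citric acid cycle were called in both directions, and the balance turned with the scaling. Of 29 tested, pyruvate dehydrogenase included, 4 were higher in heart and 9 in kidney as deposited, and 13 and 7 with median-ratio scaling. Their median was -0.02, against -0.77 over all genes, and became 0.82 with median-ratio scaling and 0.30 without the mitochondrial genome. Their summed share of nuclear TPM was 0.959% to 1.22% in heart and 0.828% to 1.23% in kidney, overlapping ranges, and the medians of liver, lung and spleen were 0.276%, 0.176% and 0.169%. The members split by isoform and by entry point. IDH3A, the catalytic subunit of the NAD-linked isocitrate dehydrogenase of the cycle, measured 326.8 to 491.9 TPM in heart (median 375.1) and 47.7 to 77.9 in kidney (median 67.1), 2.52 ± 0.07 apart (limma adjusted p = 8.67e-11). Citrate synthase (CS) was also higher in heart, at 241.2 to 348.9 against 86.0 to 131.2 (1.38 ± 0.09). So were MDH1, the cytosolic malate dehydrogenase (1.18), and the pyruvate dehydrogenase kinase PDK1 (1.16).

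Kidney was higher in enzymes that feed or drain the cycle. Pyruvate carboxylase (PC), which makes oxaloacetate for glucose synthesis, measured 238.8 to 518.9 TPM in kidney (median 295.7) and 0.843 to 2.53 in heart (median 2.06), a difference of -6.78 ± 0.13 (limma adjusted p = 3.2e-12). Cytosolic IDH1, which makes NADPH, measured 193.2 to 528.9 in kidney and 13.9 to 37.3 in heart (-3.72 ± 0.14, limma adjusted p = 7.29e-10), while the mitochondrial IDH2 overlapped, at 415.2 to 653.2 in heart and 288.8 to 634.7 in kidney. Succinyl-CoA ligase showed a split between its 2 partner subunits. SUCLG2, of the GTP-forming enzyme, was higher in kidney, at 181.5 to 475.0 against 56.9 to 102.5 TPM (-2.15 ± 0.10). SUCLA2, of the ATP-forming enzyme, reached 134.2 to 261.9 in heart and 79.7 to 136.9 in kidney, a difference of 0.93 that was not called as deposited. PDHA1, the catalytic subunit of pyruvate dehydrogenase, was called in kidney (-1.47), where it spread from 927.3 to 4004 TPM, but not with median-ratio scaling (-0.63).

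Genes of fatty acid uptake and oxidation were called in both directions. Of 37 tested, 5 were higher in heart and 15 in kidney, near the 39.4% of all genes called in kidney, and 10 and 10 with median-ratio scaling. The median was -0.82 (0.02 with median-ratio scaling), and the summed shares of nuclear TPM overlapped, at 0.868% to 1.32% in heart, 0.899% to 1.24% in kidney and 0.931% to 1.39% in liver. Lipoprotein lipase (LPL), which releases fatty acids at the vessel wall, measured 227.4 to 410.3 TPM in heart (median 315.6) and 4.27 to 11.1 in kidney (median 5.74), 5.42 ± 0.10 apart (limma adjusted p = 2.62e-12). FABP3, the fatty acid binding protein of heart muscle, measured 1456 to 2886 and 403.7 to 728.7 (1.79 ± 0.15), and the adipocyte and endothelial FABP4 53.3 to 340.3 and 6.23 to 16.3 (3.49 ± 0.23). The carnitine palmitoyltransferases, which admit long fatty acids to mitochondria, formed an opposed pair. CPT1B, the muscle enzyme, measured 147.9 to 211.6 TPM in heart and 4.95 to 15.3 in kidney (4.32 ± 0.12, limma adjusted p = 5.55e-11), and CPT1A 9 to 16.9 and 107.6 to 179.1 (-3.49 ± 0.10, limma adjusted p = 4.26e-11).

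Enzymes of peroxisomal fatty acid oxidation were higher in kidney. EHHADH, the bifunctional enzyme of the peroxisome, measured 185.6 to 592.2 TPM in kidney (median 399.3) and 7.01 to 12.4 in heart (median 8.63), a difference of -5.20 ± 0.15 (limma adjusted p = 7.63e-11). ACAA1, the peroxisomal thiolase, differed by -5.82, and HSD17B4 by -3.26. Peroxisome and amino acid oxidation genes as a list were higher in kidney in 20 of 20 tested, with a median of -5.19, and none of them was higher in heart under either other scaling. Catalase (CAT), which breaks down hydrogen peroxide, measured 1075 to 4044 TPM in kidney and 116.7 to 144.0 in heart (-4.20 ± 0.18), and HAO2, a peroxisomal hydroxyacid oxidase, 297.9 to 1159 and 0.382 to 1.13 (-9.02 ± 0.18). Among 18 genes of ketone and branched-chain amino acid use, 0 were higher in heart and 9 in kidney (median -1), with 3 and 3 under median-ratio scaling (median -0.17). PCCB, of propionyl-CoA carboxylase, was 1 of the 9 (-3.27), and OXCT1, which activates ketone bodies for oxidation, overlapped between the organs at 123.7 to 267.1 TPM in heart and 73.0 to 153.1 in kidney.

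Genes of glycolysis differed in both directions. Of 25 genes tested, 8 were higher in heart and 7 in kidney, and the median of -0.12 became 0.57 with median-ratio scaling and 0.14 without the mitochondrial genome. The aldolase ALDOA measured 2008 to 3249 TPM in heart (median 2833) and 324.4 to 1044 in kidney (median 490.7), 2.34 ± 0.13 apart (limma adjusted p = 1.08e-08). At the enolase step, ENO3 measured 1061 to 1722 in heart and 5.29 to 12.3 in kidney (7.39 ± 0.11), and ENO1 42.4 to 100 and 401.1 to 827.6 (-2.93 ± 0.08).

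Some partners of the muscle isoenzymes were not called in either organ. PGAM2, the muscle phosphoglycerate mutase, measured 78.2 to 178.9 TPM in heart and 0.141 to 1.21 in kidney (6.25 ± 0.11), but PGAM1 overlapped, with a difference of -0.27 that turned to 0.05 without the mitochondrial genome and 0.57 with median-ratio scaling. PFKM, the muscle phosphofructokinase, measured 409.0 to 533.7 and 27.8 to 39.2 (3.72 ± 0.08), whereas PFKL overlapped (-0.82, and 0.00 with median-ratio scaling). GAPDH measured 7256 to 9703 in heart and 1526 to 2603 in kidney (2.11 ± 0.10). Lactate dehydrogenase gave no clear picture. LDHA overlapped (-0.75, and 0.08 with median-ratio scaling), and the single identifier that carries the symbol LDHB lies on chromosome 2 where the RefSeq gene table has a gene of another name, so its identity is uncertain. Its TPM was 87.4 to 247.4 in 7 hearts and 40.7 to 171.4 in 7 kidneys, but 0.594 in the heart and 0.288 in the kidney of the pig BS1. The glucose transporter SLC2A4, which answers to insulin in muscle, was at 39.0 to 73.1 TPM in heart and 1.32 to 6.24 in kidney (3.98 ± 0.19).

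Glycogen genes leaned to heart, with 10 of 16 higher there, 2 higher in kidney and a median of 1.29. PYGM, the muscle glycogen phosphorylase, measured 94.4 to 142.1 TPM in heart and 1.28 to 2.11 in kidney (5.56 ± 0.09, limma adjusted p = 6.56e-13). PYGB, the brain form, was the most abundant phosphorylase in heart, at 270.9 to 437.7 against 11.1 to 24.8 (4.39 ± 0.11), and PYGL overlapped (-0.56, and 0.25 with median-ratio scaling). GYS1, the muscle glycogen synthase (1.34), its primer GYG1 (2.04) and the phosphatase targeting subunit PPP1R3C (4.22) were also higher in heart.

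Glucose synthesis and fructose use stood at the other end, with 14 of 17 genes higher in kidney, 1 in heart and a median of -5.40. PCK1, which commits oxaloacetate to glucose synthesis, measured 3773 to 6816 TPM in kidney (median 5061) and 0.0672 to 1.72 in heart (median 0.0936), a difference of -11.99 ± 0.16 (limma adjusted p = 1.97e-13). G6PC1, which releases free glucose, measured 359.6 to 1907 in kidney and at most 0.335 in heart (-9.71 ± 0.22). FBP1 (-7.40), the mitochondrial PCK2 (-8.17), GPT2 (-8.00) and GLUD1 (-3.01) were lower in heart too. GOT1, the cytosolic aspartate aminotransferase that also serves the malate-aspartate shuttle, was the exception, with 453.6 to 693.8 TPM in heart and 94.6 to 208.4 in kidney (1.95 ± 0.13).

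**Figure D3:**
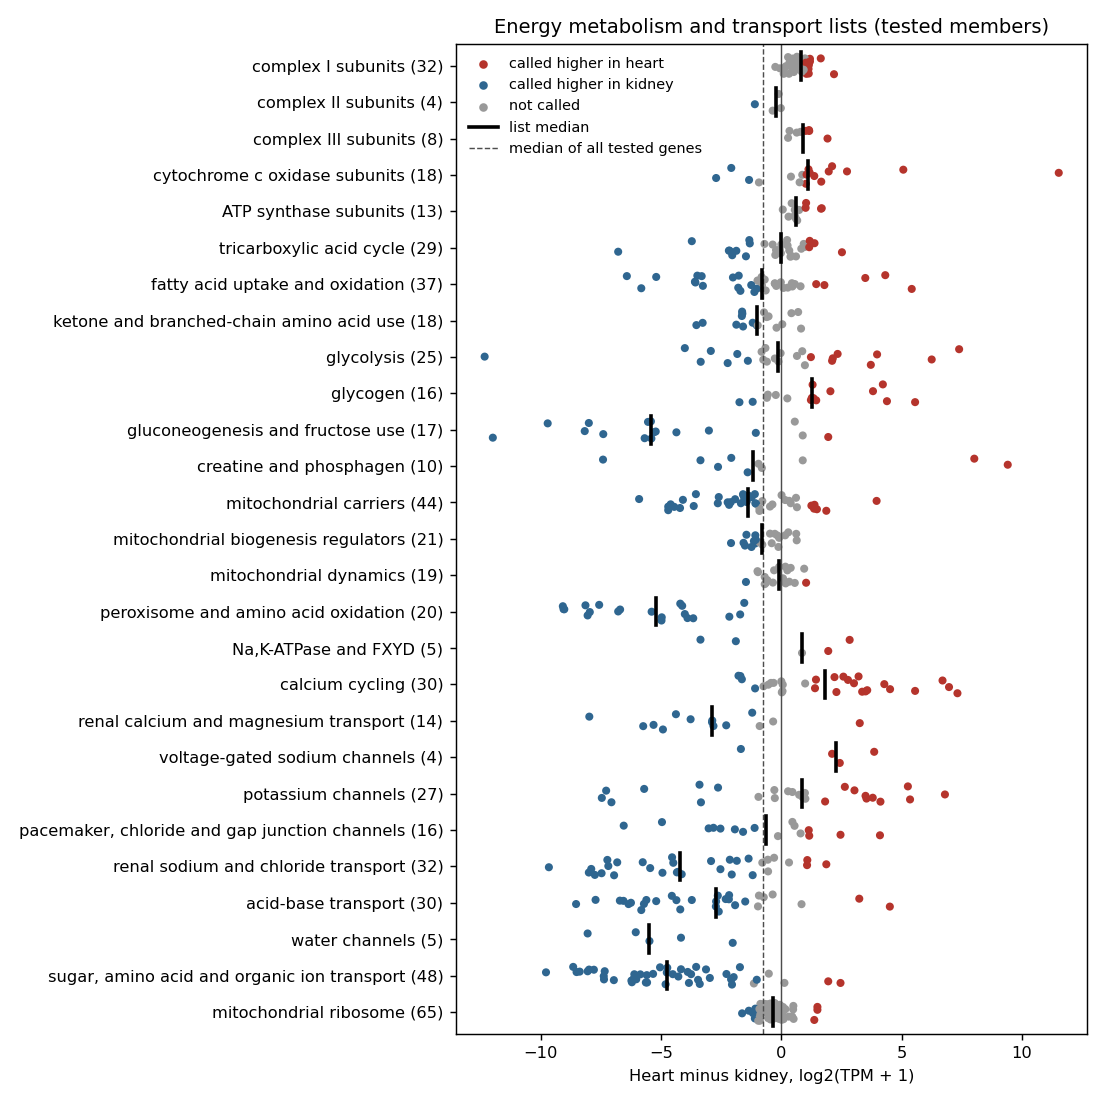
Difference between heart and kidney (log2(TPM + 1), horizontal axis) of every tested gene in 27 lists, 1 point per gene, with the number of tested genes in brackets. Red points were called higher in heart and blue points in kidney, black bars mark list medians and the dashed line the median of all tested genes at -0.77. Respiratory chain, glycogen and calcium cycling lists lie to the right, and glucose synthesis, peroxisome, water channel and tubular transport lists far to the left.

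Transfer of high-energy phosphate out of mitochondria used different genes in each organ. CKM, the creatine kinase of muscle cytosol, measured 3047 to 6675 TPM in heart (median 5031) and 3.07 to 15.2 in kidney (median 5.69), 9.41 ± 0.19 apart (limma adjusted p = 5.01e-12). CKMT2, the mitochondrial form of muscle, measured 1159 to 2047 and 3.65 to 7.39 (8.02 ± 0.11), and CKB, the brain form, 9.68 to 32.3 and 107.9 to 402.5 (-3.36 ± 0.18). GATM, which starts creatine synthesis, was on the kidney side, at 244.3 to 1084 TPM against 1.75 to 3.07 in heart (-7.41 ± 0.17). Over the creatine list, 2 of 10 tested genes were higher in heart and 5 in kidney, against 9.5% and 39.4% of all tested genes. The median was -1.17. With median-ratio scaling the counts were 3 and 4 and the median -0.42.

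The adenine nucleotide carriers, which exchange ADP for ATP across the inner membrane, showed the same kind of swap. SLC25A4, the heart and muscle carrier, measured 2285 to 3825 TPM in heart (median 3226) and 137.2 to 328.8 in kidney (median 181.0), 3.96 ± 0.10 apart (limma adjusted p = 1.75e-11). SLC25A5 measured 15.2 to 22.7 in heart and 440.8 to 633.5 in kidney (-4.70 ± 0.09, limma adjusted p = 2.41e-12), and SLC25A6 155.2 to 498.1 and 778.8 to 1983 (-2.17 ± 0.12). SLC25A3, the phosphate carrier, was higher in heart, at 1723 to 2116 against 661.9 to 792.5 (1.38 ± 0.06). Over all 44 mitochondrial carriers tested, 27 were higher in kidney and 6 in heart, with a median of -1.39. With median-ratio scaling the counts were 15 and 10 and the median -0.63. The citrate carrier SLC25A1, for example, measured 245.7 to 530.2 TPM in kidney and 11.7 to 17.6 in heart (-4.45 ± 0.08).

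Calls of mitochondrial biogenesis regulators depended on the scaling. Of 21 genes tested, 0 were higher in heart and 9 in kidney as deposited, against 9.5% and 39.4% of all tested genes. Their median was -0.79, close to the median of all genes. With median-ratio scaling the counts were 3 and 1, against 17.4% and 19.5% of all genes, and the median was -0.07. PPARGC1A, a coactivator that drives mitochondrial biogenesis, measured 7.09 to 25.6 TPM in heart and 20.8 to 34.4 in kidney, overlapping ranges, with a difference of -1.09 (-0.30 and uncalled with median-ratio scaling). TFAM, which packages and transcribes mitochondrial DNA, overlapped as well, at 14.9 to 30.4 and 25.6 to 59.9 (-1.06, and -0.24 with median-ratio scaling). Of 65 mitochondrial ribosome genes, 3 were higher in heart and 5 in kidney, with a median of -0.34 (0.47 with median-ratio scaling).

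Of the sodium pump, which sets the gradient for most ion transport, the beta subunit ATP1B1 measured 139.7 to 203.9 TPM in heart (median 175.6) and 1278 to 2096 in kidney (median 1935), a difference of -3.36 ± 0.08 (limma adjusted p = 1.7e-11). ATP1B4, a member of the same family found in muscle, was higher in heart, at 4.06 to 15.6 against 0.0341 to 0.540 TPM (2.84 ± 0.19). In the list of sodium pump and FXYD genes, 8 of 15 entries matched a gene and 5 were tested. Of these, 2 were higher in heart and 2 in kidney, with a median of 0.86. With median-ratio scaling the counts were 3 and 2 and the median 1.39. Catalytic alpha subunits are not reported here, so ATP1B1 and ATP1B4 do not stand for the whole pump.

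Calcium cycling was the transport group with most calls in heart, where 17 of 30 genes were higher and 4 lower, with a median of 1.82, and it summed to 0.686% to 0.989% of TPM in heart and 0.125% to 0.169% in kidney. ATP2A2, the calcium pump of the sarcoplasmic reticulum, measured 866.4 to 1178 TPM in heart (median 1094) and 27.8 to 80.6 in kidney (median 57.2), 4.28 ± 0.15 apart (limma adjusted p = 3.59e-10). Its inhibitor phospholamban (PLN) measured 3338 to 5882 (median 4636) and 26.8 to 68.8 (median 41.8), 6.70 ± 0.12 apart (limma adjusted p = 1.25e-12). The store protein calsequestrin (CASQ2) measured 348.6 to 446.8 and 26.4 to 47.3 (3.57 ± 0.09), and the lumenal protein sarcalumenin (SRL) 171.3 to 332.9 and 0.163 to 1.01 (7.32 ± 0.10). SLC8A1, the exchanger that trades calcium for sodium at the cell surface, was present in both organs at 90.5 to 115.7 and 9.08 to 33.9 TPM (2.29 ± 0.14), and CAMK2D, the calmodulin kinase of heart, at 181.2 to 272.9 and 7.29 to 10.3 (4.52 ± 0.06). CALM3 (-1.78) and the plasma membrane pump ATP2B1 (-1.70) were higher in kidney, but not with median-ratio scaling (-0.94 and -0.93), where no member of the list was called in kidney.

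Renal calcium and magnesium transport genes ran the other way, with 11 of 14 higher in kidney and 1 in heart (median -2.88). CALB1, which carries calcium through distal tubule cells, measured 159.5 to 387.2 TPM in kidney and at most 0.0522 in heart (-7.98 ± 0.13, limma adjusted p = 7.59e-13), and the vitamin D receptor VDR 34.8 to 49.6 and at most 0.0952 (-5.31 ± 0.08). SLC41A1, a magnesium transporter, was the call in heart, with 119.8 to 172.1 TPM against 11.8 to 19.0 (3.26 ± 0.11).

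In the list of voltage-gated sodium channels, which carry the action potential of muscle, 3 of 4 tested genes were higher in heart and 1 in kidney (3 and 0 with median-ratio scaling), and 8 others failed the level filter. SCNN1A, a subunit of the epithelial sodium channel of the distal tubule and collecting duct, measured 39.4 to 98.6 TPM in kidney (median 51.3) and 0.265 to 0.329 in heart (median 0.297), a difference of -5.45 ± 0.14 (limma adjusted p = 2.99e-11).

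Potassium channels gave calls in both directions, with 10 of 27 higher in heart and 7 in kidney (median 0.88). The inward rectifiers, which set the resting potential in muscle and recycle potassium in tubules, differed member by member. KCNJ2 measured 10.5 to 32.2 TPM in heart and 2.44 to 6.85 in kidney (1.82 ± 0.16), and KCNJ4 56.9 to 209.3 and at most 0.137 (6.80 ± 0.21). KCNJ1, the channel of potassium secretion in loop and collecting duct, measured 88.5 to 236.4 TPM in kidney and was listed at 0 in all 8 hearts. KCNJ15 (-7.28) and KCNJ16 (-7.46) were higher in kidney as well. KCNJ8 (5.26) and ABCC9 (3.80), pore and regulatory subunit of an ATP-sensitive channel, were both higher in heart.

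A channel whose subunits are known to assemble together was split between the organs. KCNE1, the accessory subunit of the slow cardiac potassium current, measured 116.0 to 178.3 TPM in heart (median 145.5) and 2.68 to 19.7 in kidney (median 6.13), 4.12 ± 0.23 apart (limma adjusted p = 1.58e-08). Its pore subunit KCNQ1 measured 15.5 to 30.8 in heart (median 22.1) and 99.6 to 197.3 in kidney (median 138.0), a difference of -2.63 ± 0.08 (limma adjusted p = 1.52e-10). The accessory subunit was thus the more abundant of the pair in heart and the pore subunit in kidney. Gap junction genes were likewise split, with GJA1, the main connexin of ventricular muscle, at 107.1 to 211.4 TPM in heart and 6.37 to 12.7 in kidney (4.10 ± 0.14), and GJB1 at 71.4 to 142.8 in kidney and at most 0.104 in heart (-6.55 ± 0.12). The list of pacemaker, chloride and gap junction channels had 4 of 16 higher in heart and 8 in kidney, with a median of -0.62 (0.01 with median-ratio scaling).

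**Figure D4:**
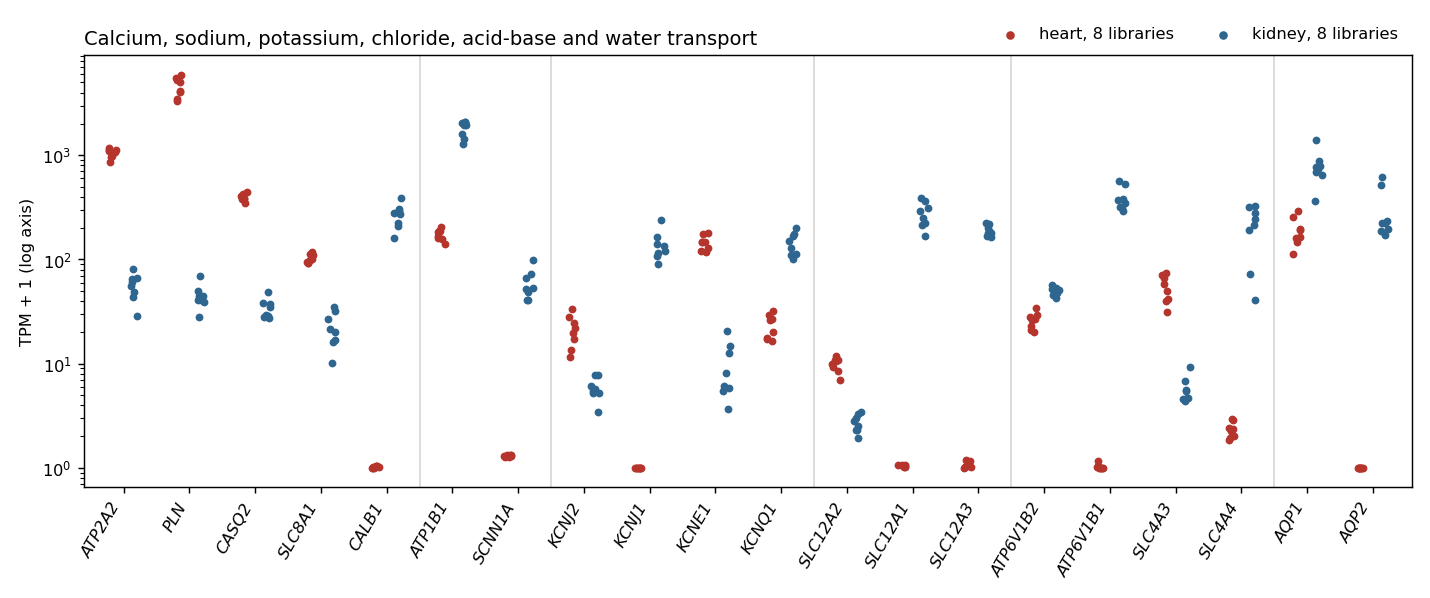
Levels of transport genes (TPM + 1, log axis) in 8 heart (red) and 8 kidney (blue) libraries, 1 point per library, grouped as calcium, sodium, potassium channels, chloride, acid-base and water. ATP2A2, PLN, CASQ2, SLC8A1 and KCNE1 are higher in heart, and the tubular genes SLC12A1, SLC12A3, KCNJ1, ATP6V1B1 and AQP2 sit at or near 0 in heart.

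Renal sodium and chloride transport was called in kidney for 24 of 32 genes and in heart for 3, with a median of -4.22. SLC34A1, which takes up phosphate with sodium in the proximal tubule, measured 404.5 to 1483 TPM in kidney (median 892.7) and at most 0.294 in heart (-9.66 ± 0.17, limma adjusted p = 1.46e-12). SLC12A1 and SLC12A3, the targets of loop and thiazide diuretics, measured 165.1 to 389.0 and 161.6 to 224.7 TPM in kidney and at most 0.0740 and 0.197 in heart (-8.00 ± 0.13 and -7.47 ± 0.08). The calls in heart were other members of the same transporter family. SLC12A2, the widespread sodium, potassium and chloride cotransporter, measured 5.96 to 10.9 TPM in heart and 0.924 to 2.42 in kidney (1.87 ± 0.10), and the potassium and chloride cotransporters SLC12A4 (1.08) and SLC12A7 (1.07) were called with overlapping ranges, the latter not without BS1 (0.94).

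Acid-base transport had 23 of 30 genes higher in kidney, 2 in heart and a median of -2.71. The proton pump showed an isoform difference. ATP6V1B1, the subunit of the pump in intercalated cells, measured 292.4 to 569.6 TPM in kidney (median 357.2) and at most 0.158 in heart (-8.53 ± 0.12, limma adjusted p = 2.43e-13), whereas the widespread ATP6V1B2 measured 41.6 to 56.0 and 19.2 to 33.0, a difference of -0.93 that was not called (-0.12 with median-ratio scaling). Bicarbonate transport was split in the same way. SLC4A4, the sodium bicarbonate cotransporter of the proximal tubule, measured 39.8 to 326.1 TPM in kidney and 0.869 to 1.95 in heart (-6.25 ± 0.27), and the anion exchanger SLC4A3 30.5 to 73.1 in heart and 3.37 to 8.30 in kidney (3.24 ± 0.11). Among carbonic anhydrases, CA14 was higher in heart (4.51) and CA2 (-6.56), CA4 (-2.60) and CA12 (-7.72) in kidney.

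All 5 tested water channels were higher in kidney. AQP2, the vasopressin-regulated channel of the collecting duct, measured 172.0 to 616.8 TPM in kidney and was listed at 0 in all 8 hearts. AQP1, which endothelium also carries, measured 365.5 to 1389 in kidney and 112.8 to 288.6 in heart (-2.02 ± 0.15). Among 48 transporters of sugars, amino acids and organic ions, 43 were higher in kidney and 2 in heart (median -4.75). SLC22A8, an organic anion transporter, measured 781.9 to 1303 TPM in kidney and at most 0.239 in heart (-9.78 ± 0.11, limma adjusted p = 6.4e-14). The calls in heart were the glutamate transporter SLC1A3 (2.46) and the organic cation transporter SLC22A3 (1.95), at 2.35 to 6.51 and 2.06 to 7.33 TPM. Of 13 claudins and tight junction genes, 11 were higher in kidney and 0 in heart (median -2.98), with CLDN2, which makes the proximal tubule leaky to sodium, at 207.2 to 414.7 TPM in kidney and at most 0.0604 in heart.

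Over all genes, the largest differences belonged to contractile proteins and to tubular enzymes. The 10 genes named by size in heart were ACTA1, MYL2, TNNT2, MYH7, TNNC1, MYOZ2, MYL3, TCAP and CSRP3, all of the sarcomere or its Z-disc, with log2 differences of 11.04 to 13.46, and COX8H. ACTA1, skeletal actin, measured 7048 to 16930 TPM in heart and at most 0.210 in kidney. Those in kidney included PCK1 (-11.99), uromodulin (UMOD, -11.76), the methyltransferase BHMT2 (-10.22), the inositol oxygenase MIOX (-10.18) and SLC22A8, and 4 others had no symbol in the files.

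Transcript usage, the percent of a gene's TPM carried by 1 transcript, was tested separately from level, with limma on the log ratio of a transcript to the rest of its gene. A shift was called at an adjusted p under 0.05 and at least 20 points of percent. Of 17808 transcripts tested, 1428 (8.02%) shifted, on 808 of 5974 genes (13.5%). By level, 414 of the 808 genes were not called, 297 were higher in kidney and 97 higher in heart. For the largest called shift of each gene, the mean usage in liver, lung and spleen lay nearer to kidney in 595 of the 808 (73.6%). It lay nearer to heart in 213. The same share over all tested genes was not computed, so 73.6% has no background beside it. Energy metabolism lists held shifts in 26 of 269 tested genes (9.67%), which is under the background, and ion and solute transport lists in 17 of 45 (37.8%). Calcium cycling alone gave 7 of 12, namely ASPH, ATP2A2, ATP2B1, ATP2B4, CAMK2D, ITPR1 and SLC8A1, and mitochondrial dynamics 5 of 13, namely FUNDC1, IMMT, MFF, MFN2 and OPA1. Complex I gave 0 of 23. Coordinates below are on build susScr11, counted from 1.

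The phosphate carrier SLC25A3 exchanged 1 exon almost completely, the largest shift among the genes named. Its 2 main transcripts have 8 exons each and differ in exon 3, which in the heart form is 125 bases long (chromosome 5, 85290413 to 85290537, minus strand) and in the kidney form 121 bases (85290132 to 85290252). The heart form took 90.4% to 94.4% of the gene in heart (median 92.8%) and at most 0.0299% in kidney, a shift of 92.6 points (limma adjusted p = 8e-10). The kidney form took 90.5% to 95% in kidney and 3.65% to 6.83% in heart, and in liver, lung and spleen it averaged 92.6%, 90.1% and 91.9%. Full-length reads gave the heart form 460 of 494 reads (93.1%, exact 95% interval 90.5% to 95.2%) in BS heart and 61 of 62 in DSE heart. In kidney they gave it 27 of 203 (13.3%, 8.95% to 18.8%) and 9 of 77 (11.7%, 5.49% to 21.0%), more than the short reads assigned. Intervals cover counting error only.

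Pyruvate kinase PKM, the last enzyme of glycolysis, exchanged its exon 9. The 2 exons are 167 bases each (chromosome 7, 61028764 to 61028930 in the heart form and 61029321 to 61029487 in the kidney form) and are known as the mutually exclusive pair that defines the M1 and M2 enzymes. The heart form took 68.6% to 79.0% in heart (median 76.3%) and 0.487% to 1.77% in kidney, a shift of 74.2 points (limma adjusted p = 1.13e-08). The kidney form ranged more widely, from 34.0% to 93.5% in kidney (median 69.0%), and took 0% to 6.49% in heart. Its kidney values lay apart by pig code, at 34.0% to 61.8% in the 4 BS and 76.3% to 93.5% in the 4 DSE libraries. Another form, which starts further downstream (61018404) with the same coding length of 1596 bases, went the other way. It took 31.5% to 60.1% in BS kidney, 0% to 14.5% in DSE kidney and 8.41% to 17.6% in heart. Full-length reads gave it only 5 of 465 (1.08%) and 2 of 226 (0.885%) in BS and DSE kidney. Its exon 9 was not compared. How short reads were divided between the forms was not tested. Full-length reads gave the kidney form 431 of 465 (92.7%) in BS and 216 of 226 (95.6%) in DSE kidney. In heart they gave it 84 of 691 (12.2%) and 101 of 762 (13.3%), more than the short reads assigned. They gave the heart form 585 of 691 (84.7%) and 648 of 762 (85.0%) in BS and DSE heart against 8 of 465 (1.72%) and 1 of 226 (0.442%) in kidney.

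Ketohexokinase KHK, which phosphorylates fructose, exchanged its exon 3 of 135 bases for another of the same length (chromosome 3, 112026154 to 112026288 in the heart form, 112025832 to 112025966 in the kidney form). The heart form took 61.2% to 77.6% in heart (median 71.4%) and 2.01% to 4.25% in kidney (limma adjusted p = 1.43e-08), and the kidney form 69.1% to 84.5% in kidney (median 79.9%) and 0% to 14.1% in heart. The other organs divided. Liver, which shares fructose use with kidney, averaged 70.8% of the kidney form, and lung and spleen averaged 69.0% and 68.8% of the heart form. The gene itself was at 186.5 to 371.4 TPM in kidney and 3.40 to 7.51 in heart (-5.42 ± 0.09).

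Other energy genes gained or lost single exons. IDH3B, a regulatory subunit of the same isocitrate dehydrogenase as IDH3A, carried an exon 12 of 198 bases (chromosome 17, 32959676 to 32959873) in the kidney form only. The form without it took 79.8% to 84.8% in heart (median 82.5%) and 1.33% to 2.86% in kidney, a shift of 80.6 points (limma adjusted p = 2.41e-09), and averaged 1.49% to 3.07% in the other organs. ATP5F1C, the gamma subunit in the central stalk of ATP synthase, skipped an exon 9 of 36 bases (chromosome 10, 63585094 to 63585129) in a form that took 23.1% to 33.5% in heart (median 26.5%) and at most 0.913% in kidney (limma adjusted p = 1.15e-07). The form with the exon took 65.1% to 75.7% in heart and 94.9% to 97.8% in kidney by short reads, but 5 of 233 (2.15%) and 7 of 135 (5.19%) of the gene's full-length reads in heart against 157 of 167 (94.0%) and 54 of 58 (93.1%) in kidney. The 2 methods thus gave the same direction and very different shares in heart, and transcripts present only in Ensembl have no full-length count. ATP5F1C and the genes ATP2A2, CAMK2D and WNK1 below were picked after their values were seen.

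The 5′ part of the transcript differed in 2 mitochondrial genes. BCAT2, the mitochondrial branched-chain aminotransferase, used a first exon at chromosome 6, 54123250 to 54123447, for 47.0% to 67.5% of the gene's TPM in heart (median 58.8%) and 2.13% to 6.92% in kidney (limma adjusted p = 2.04e-07), while a longer form with 6 exons further upstream took 89.5% to 96.3% in kidney and 13.4% to 36.6% in heart. MFN2, which fuses mitochondria, had an additional exon of 68 bases near its start (chromosome 6, 72028499 to 72028566) in the form that took 45.9% to 61.1% in heart and 2.16% to 8.26% in kidney, a shift of 47.5 points (limma adjusted p = 9.07e-07). COX6A2 shifted too by short reads. A form of 4 exons took 92.2% to 95.9% of the gene in heart, and in kidney, where the gene reached only 12.2 to 20.6 TPM, forms that begin further upstream and run into the gene took most of it. Full-length reads, which have no count for the 4-exon form because it is present only in Ensembl, gave 1 of the upstream forms 267 of 276 (96.7%) in BS heart and 117 of 117 in DSE heart, where short reads gave it 3.3% to 6.53%. Kidney held 1 full-length read of the gene in each library, so the shift could not be compared between the methods.

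**Figure D5:**
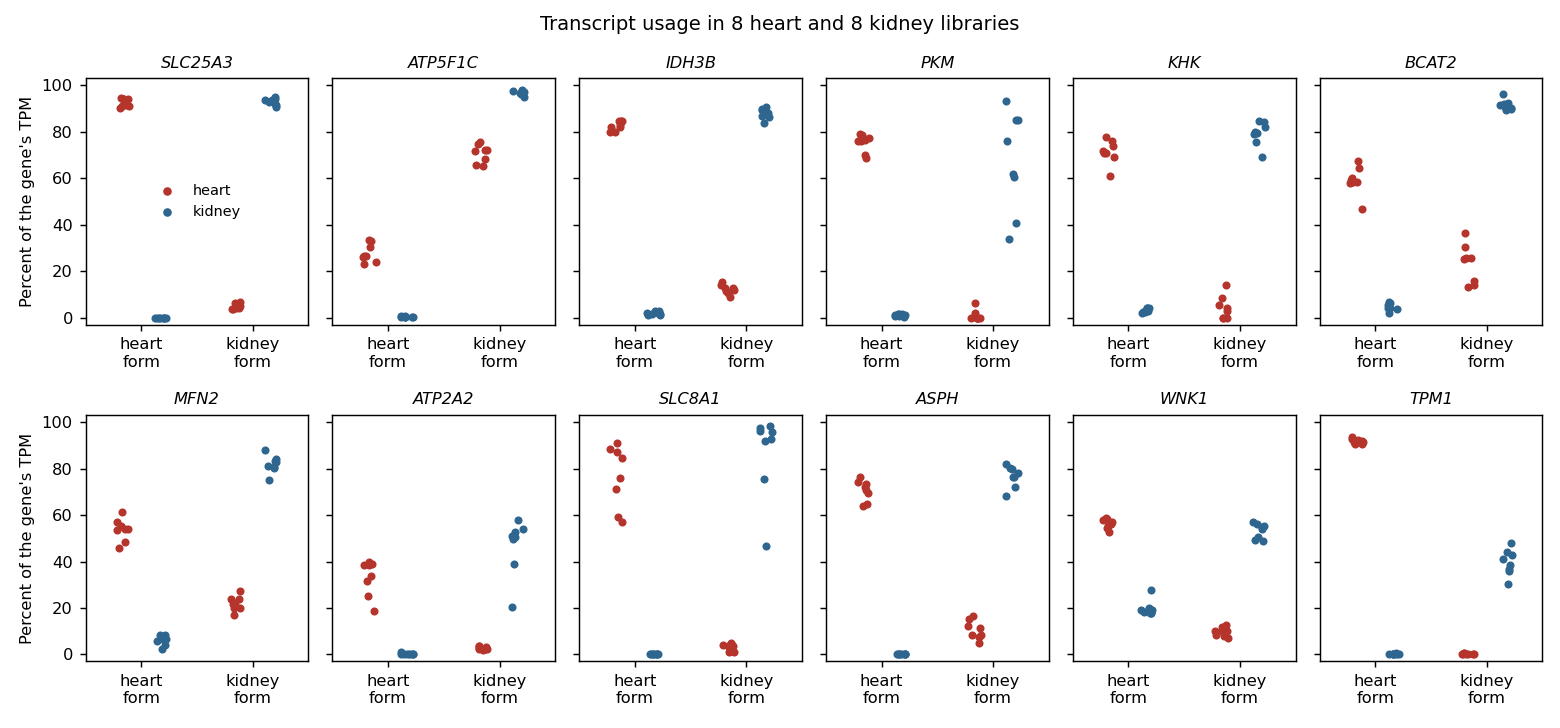
Percent of a gene's TPM carried by its heart form and its kidney form in 8 heart (red) and 8 kidney (blue) libraries, 1 point per library, for 12 genes. SLC25A3 and IDH3B change over almost fully, ATP5F1C and WNK1 in part, and the kidney form of PKM and of SLC8A1 spreads widely among kidneys.

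Among calcium genes, the shifts touched the pump and the exchanger. ATP2A2 is known to make a muscle form and a widespread form that differ at the 3′ end. The kidney form here had a longer last exon, with 3388 bases (chromosome 14, 31740786 to 31744173) that the heart form splices out. It took 20.6% to 58.0% in kidney (median 50.7%) and 1.98% to 3.65% in heart (limma adjusted p = 3.17e-07), and the heart form 18.6% to 40% in heart (median 36.0%) and at most 0.968% in kidney. Full-length reads in heart gave the heart form 4122 of 4297 (95.9%) in BS and 806 of 879 (91.7%) in DSE, while kidney held only 7 reads and 1 read of the gene. SLC8A1 exchanged an exon of 107 bases (chromosome 3, 100155802 to 100155908) in heart for one of 104 bases (100156442 to 100156545) in kidney, and the heart form had 3 further short exons of 21, 15 and 69 bases. The heart form took 56.8% to 90.9% in heart (median 80.3%) and was listed at 0 in every kidney, and the kidney form took 46.5% to 98.3% in kidney (median 94.3%) and 1.1% to 4.71% in heart (limma adjusted p = 2.03e-07). Liver, lung and spleen averaged 80.2% to 83.8% of the kidney form.

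ASPH, which makes junctin and related proteins of the calcium release site as well as an aspartyl hydroxylase, used in heart a short form of 5 exons that ends with its own exon of 3525 bases (chromosome 4, 71954730 to 71958254). That form took 64.1% to 76.4% in heart and was listed at 0 in every kidney, where a form of 25 exons took 68.0% to 82.2% (4.72% to 16.4% in heart). No full-length read of the short form was found among 19 and 11 reads of the gene in heart, so it rests on short reads here. By short reads CAMK2D used a form with an additional exon of 33 bases at 18.3% to 22.9% in heart, listed at 0 in every kidney. It also has its own first exon of 130 bases and lacks the first 3 exons of the form it was compared with, so the shift cannot be given to the 33 bases alone. Full-length reads gave it only 1 of 304 (0.329%) and 1 of 205 (0.488%) in heart.

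For sodium handling, WNK1, a kinase that regulates the thiazide-sensitive cotransporter, is known to have a kidney form that starts inside the gene and lacks the kinase domain. Here a form of 24 exons whose first exon of 389 bases lies inside the gene (chromosome 5, 68088242 to 68088630) took 49.0% to 57.0% in kidney (median 54.5%) and 7.27% to 12.8% in heart (limma adjusted p = 2.01e-07). It averaged 18.4%, 16.4% and 19.4% in liver, lung and spleen. A form of 22 exons that starts at the same position was not called, with 22.8% to 31.9% in kidney, 31.1% to 38.4% in heart and averages of 36.9%, 44.5% and 39.3% in the other 3 organs. A start inside the gene was thus not limited to kidney. The long form with 29 exons took 52.5% to 58.9% in heart and 17.7% to 27.5% in kidney. NEDD4L, a ligase that removes the epithelial sodium channel from the membrane, used a form that took 44.3% to 68.6% in kidney and at most 7.33% in heart (limma adjusted p = 2.65e-06).

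Outside these lists, the largest called shift, where both organs averaged 20 TPM or more, was that of tropomyosin TPM1, a thin filament protein. Its heart form took 90.6% to 93.5% in heart (median 91.7%) and at most 0.525% in kidney, a shift of 91.8 points (limma adjusted p = 2.25e-09). Full-length reads gave it 2122 of 2291 (92.6%) and 990 of 1034 (95.7%) in heart and 0 of 151 and 0 of 68 in kidney, which allow up to 2.41% and 5.28%. PLIN2, a coat protein of lipid droplets, shifted by 76.1 points towards its heart form, from 13.5% to 21.7% in kidney to 88.8% to 95.7% in heart.

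Full-length reads gave a second view of gene level. The 4 heart and kidney libraries held 315129 (BS heart), 196709 (DSE heart), 399295 (BS kidney) and 146209 (DSE kidney) reads that could be assigned to a gene. With 1 library for each pig code and organ, edgeR's quasi-likelihood test took its spread from all 10 libraries. Of 4110 genes tested, 845 (20.6%) were higher in heart and 936 (22.8%) higher in kidney at an adjusted p under 0.05 and at least 2-fold, against 541 and 627 without pig code as a term. These counts were scaled between libraries by TMM, whereas the calls by TPM set beside them are those as deposited. The scalings thus differ, and calls with median-ratio scaling were not set beside them. Of the 845, 344 were also higher in heart by TPM, 471 were not called, 25 were higher in kidney and 5 were not tested. Of the 936, 873 were also higher in kidney by TPM, 57 were not called, 2 were higher in heart and 4 were not tested. Among the called transcripts that came from long reads, 270 had at least 10 reads of their gene in each of the 4 libraries, and 201 of these (74.4%) shifted in the same direction in BS and in DSE as by TPM, and 10 in the opposite direction in both.

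The difference between heart and kidney was also compared between the pig codes. The interaction of organ and pig code, tested with limma, was called for 7 of 14173 genes (0.0494%), and 1639 had an unadjusted p under 0.05. CCDC152, at whose locus the RefSeq table also places the selenium transport protein SELENOP, measured 222 to 444 TPM in BS kidney and 1780 to 1940 in DSE kidney, against 49.2 to 75.7 and 107 to 162 in heart (interaction 1.56, limma adjusted p = 0.0415). GPC3, a cell surface glypican, measured 10.8 to 14.7 TPM in BS kidney and 39.7 to 108 in DSE kidney and overlapped between the codes in heart (interaction 2.41, limma adjusted p = 0.0415). The detoxifying oxygenase FMO5 was likewise higher in DSE kidney, at 118 to 196 against 44.9 to 64.6 TPM (interaction 1.5). The 7 calls lay close to the threshold, with adjusted p-values of 0.0415 to 0.0498. Leaving out 1 animal at a time gave 0 to 3 calls for 7 of the animals and 154 without BS3, and 0 genes were called when the mitochondrial genome was left out. Over the same fits the interactions ranged from 1.47 to 1.69 for CCDC152, from 2.16 to 2.72 for GPC3 and from 1.41 to 1.65 for FMO5, while their adjusted p reached 0.119, 0.105 and 0.14. With no note in the labels on when or where each pig was sampled, pig code and sampling cannot be told apart. For the same reason the p-values from the short-read libraries measure the spread between these labelled animals. Those from full-length reads measure the spread among 10 libraries with no animal named.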

How the data were processed

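RNA was extracted with Trizol and acid phenol, and ribosomal RNA was removed before Illumina sequencing, per the labels' protocols. The gene and transcript tables were deposited by the authors as TPM, and each library sums to the same total. Per the submitters' processing notes, the tools included STAR 2.7.10a and Salmon 1.10.1 with build susScr11, and the step each served is not given. PacBio data were deposited by the authors as full-length read counts per transcript, with tools and filters not given in the sources used here. Exon coordinates come from the deposited annotation, which mixes Ensembl, RefSeq and PacBio transcripts per the file headers. Columns that match no label (20 in each TPM table and 5 in the count table) were not used, and samples coded DT were not analysed here.

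Levels were tested as log2(TPM + 1) where a gene averaged 1 TPM or more in heart or kidney. The model was fitted by limma 3.58.1 (R 4.3.3) with a trended prior variance, the animal as a block and Benjamini-Hochberg adjustment over all genes tested. The block rests on the animal codes in the labels. Deviations of heart and kidney of 1 animal from the mean of their organ and pig code correlated at -0.01 to 0.38. The correlation was over 0.1 in 5 of 8 animals. Within each pig code, the heart of BS2 correlated best with the kidney of BS1, that of DSE1 with DSE2 and that of DSE2 with DSE1. The other hearts correlated best with the kidney of their own animal. For usage, the log2 ratio of each transcript to the rest of its gene was modelled, adding 0.5 TPM to both. Genes needed 2 transcripts and an average of 5 TPM in both organs, and transcripts an average usage of 5% in heart or kidney. Full-length counts were summed per gene, by the transcript's own gene (51.9% of reads) or by its locus (35.9%), and tested with edgeR 4.0.16 with TMM scaling and pig code as a term. Other reads were left out, and DESeq2 1.42.0 served as an alternative. Plots were drawn with matplotlib 3.10.9 under Python 3.11.15. The fits were tested on simulated data.

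The organs compared, the gene lists and the pairs of isoenzymes were chosen with earlier results of these data known. Of 866 list entries, 793 matched a gene by symbol, and the others were not analysed here. Genes were named by taking the 10 largest called differences per organ at a mean of at least 10 TPM without overlap, up to 6 called members per direction of each list by level with all members of the pairs, the 10 largest called usage shifts at 20 TPM or more with up to 12 list members, and up to 5 interaction genes. Some genes so named are not reported here. The genes of the mitochondrial genome, SLC2A4, ATP2B1, the usage of ATP5F1C, ATP2A2, CAMK2D and WNK1, and some other list members were named after their values were seen. Of 204 genes looked up, 62 overlap another annotated gene, 19 of them on the same strand. The authors' use of strand is not stated, so such reads cannot be told apart.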

Additional observations from a re-analysis of the deposited data

Results flagged for a closer look

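In 350 sets of 8 values (1 gene or transcript in 1 organ), 18 had a single library far from the other 7. For a single set the nominal rate is about 1 in 20. The sets share the same libraries and are not independent, so the 18 cannot be weighed against that rate. The kidney library of BS3 was that library in 9 of the 18. It was high for MIOX at 1900 TPM (others 925 to 1280), PC at 519 (239 to 359), ECHS1 at 774 (354 to 487), PCK2 at 827 (400 to 549), CRYL1 at 1580 (1240 to 1380) and CALM3 at 402 (214 to 273). It was also high for usage, in the kidney form of ENSSSCG00000011851 at 88.6% (60.8% to 72.0%), the kidney form of BCAT2 at 96.3% (89.5% to 92.3%) and the long form of WNK1 at 27.5% (17.7% to 20.2%). The same library had the lowest mitochondrial share of the kidneys, 18.5%, and its part in these values was not tested.

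The DSE4 kidney was high for the mitochondrial ribosomal RNAs ENSSSCG00000018061 at 1460 TPM (others 612 to 799) and ENSSSCG00000018063 at 885 (188 to 294). In the BS1 kidney the kidney forms of SLC8A1 (46.5%, others 75.3% to 98.3%) and SMTN (79.2%, others 88.8% to 93.9%) were low. In heart, DSE3 was high for ACSL1 at 195 TPM (131 to 160) and GOT1 at 694 (454 to 551), and BS4 for PPARGC1A at 25.6 (7.09 to 13.2). DSE1 was low for the heart form of ENSSSCG00000011851 at 73.7% (88.6% to 95.4%) and BS2 for the heart form of BCAT2 at 47.0% (58.2% to 67.5%).

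The test of the difference between pig codes called 7 genes. Given as BS minus DSE, on the log2(TPM + 1) scale, of heart minus kidney, the interactions were 1.56 for CCDC152, -1.53 for C1QL4, 1.5 for FMO5, 2.41 for GPC3, -3.08 for ENSSSCG00000043612, 2.72 for APOB and -1.71 for FOXJ1. C1QL4 measured 2.57 to 3.47 TPM in BS kidney and 0.153 to 0.610 in DSE kidney. ENSSSCG00000043612 measured 0.946 to 6.22 TPM in BS heart and 18.8 to 30.7 in DSE heart and was listed at 0 in every kidney. APOB measured 0.0134 to 0.589 TPM in BS kidney and 6.09 to 18.3 in DSE kidney. FOXJ1, a regulator of motile cilia, measured 7.11 to 13 TPM in BS kidney and 1.59 to 2.86 in DSE kidney.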

How the results depend on the processing

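The genes higher in heart and the genes higher in kidney numbered 818 and 3405 with a pseudocount of 5 TPM, 2470 and 2761 with median-ratio scaling, 2576 and 9864 with no minimum fold, and 591 and 2004 at 4-fold. Without the replicate block, which ignores the pairing by animal, they numbered 1342 and 5578, shifted transcripts 1412, and full-length read genes 541 in heart and 627 in kidney. DESeq2 gave 648 and 662 of the last. Shifted transcripts numbered 2151 with a gene level of at least 1 TPM, 453 at 20 TPM and 362 at 40 points. The interaction gave 2 genes with a pseudocount of 0.1 TPM and 0 without the mitochondrial genome. Leaving out 1 animal gave 1310 to 1385 genes higher in heart, 5476 to 5708 in kidney, 1413 to 1464 shifted transcripts, 0 to 154 interaction genes (154 without BS3) and -1477.9 to -1374.9 expressed genes (exact permutation p up to 0.0156). Leaving out 1 PacBio library gave 582 to 848 and 739 to 869 genes. PGAM1 turned to 0.05 without the mitochondrial genome and, with median-ratio scaling, to 0.57, PFKL to 0.00, LDHA to 0.08 and PYGL to 0.25. Of 186 named genes, 146 kept their direction and call (adjusted p and 2-fold limit) throughout. With median-ratio scaling 14 lost their call, 8 gained one and 4 uncalled genes turned sign, a pseudocount of 5 TPM changed 10, leaving out the mitochondrial genome 8, leaving out 1 animal at a time 11, and the fit without the block 1 (ND4L). Of 48 named transcripts 44 kept theirs. The causes were not tested. The short-read depth is unknown, which limits low TPM values.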

Other observations

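Some splicing regulators, named after their values were seen, also differed between the organs. Of 26 tested, 5 were higher in heart and 9 in kidney, against 9.5% and 39.4% of all tested genes. The median was -0.80, close to the -0.77 of all tested genes. With median-ratio scaling the counts were 9 and 4, against 17.4% and 19.5% of all genes, and the median was 0.01. RBM20, which regulates splicing of sarcomere and calcium genes, measured 13.6 to 25.6 TPM in heart (median 18.0) and 0.0251 to 0.211 in kidney (4.12 ± 0.10, limma adjusted p = 2.43e-11). RBM38 measured 33.3 to 91.6 and 5.85 to 19.8 TPM (2.21 ± 0.13), and QKI 81.1 to 137.6 and 28.9 to 66.7 (1.12 ± 0.09). PTBP1, known to favour the M2 exon of PKM, measured 25.5 to 36.3 TPM in heart and 111.7 to 166.7 in kidney (-2.15 ± 0.06, limma adjusted p = 9.62e-11). ESRP1, a regulator of epithelial cells, measured 4.45 to 10 TPM in kidney and was listed at 0 in all 8 hearts. The organs did not overlap in any of these 5 genes. A relation of these levels to the exon shifts was not tested.

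Red blood cell markers varied widely within each organ, from 178.3 to 1486 TPM in heart and from 42.3 to 778.0 in kidney, and skeletal muscle markers stayed at or below 0.816 TPM in heart and 1.68 in kidney.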
